A study of Mus musculus with 160 samples.

Results

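The cells described are single stromal cells from the bone marrow of old C57BL/6J mice, 78 of the 160 cells of the series, and were chosen by their labels alone, as every cell titled as an old cell. They were sorted by flow cytometry as CD45-Ter119-CD31-LepR+CD140a+, a gate that sets aside blood cells (CD45), red cell precursors (Ter119) and endothelium (CD31) and keeps cells carrying the leptin receptor and PDGF receptor alpha (CD140a). The labels give an age of 24 months and the protocol an age of 2 years, and no further allele, transgene or treatment is named. Single cells were caught on a Fluidigm C1 microfluidic chip and their RNA was amplified with SMARTer chemistry. Of 96 wells loaded with old cells, 79 were judged valid by microscopy, and 78 cells are analysed here. The 82 cells of young mice were not compared. The labels tie no cell to an animal, and the 78 cells therefore count as 1 sample: the values below carry no replicate check and no test, and intervals for shares of cells are exact (Clopper-Pearson, 95%) and cover counting error only.

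Stromal cells with the leptin receptor lie along the sinusoids and arterioles of the marrow. They are known as the main source of CXCL12 and stem cell factor, which keep blood stem cells in place and alive, and as the cells from which marrow fat and, in adult life, much new bone arise. In textbook accounts they carry RNA of fat and bone genes at low or moderate levels before either fate is taken.

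Levels are FPKM, which scale a gene's fragments for the length of its transcript and for the size of the library. The scaling is meant to make genes of different length comparable. A gene is called listed in a cell at 1 FPKM or more. Of 22866 gene names, 16 were listed in at least 90% of the cells, which is 0.07% of all names, and 287 in at least 50%, which is 1.26%. No cell listed 12856 of the names (56.2%). A value listed at exactly 0 may also stand for an estimate that failed, and a gene that no cell listed could still be listed in up to 3.85% of such cells by the limit of 3 counts in 78, or 4.62% by the exact interval.

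The cells differed widely in how finely their values were graded, and this bears on every share given here. In 18 cells, called coarse-grained below, the 10th percentile of the values above 0 was 1.46 to 78.3 FPKM, so that a single low value was already above the level for a listed gene. In the other 60 cells, called fine-grained, it was at most 0.624 FPKM. The split was made after the data were seen. Coarse-grained cells listed a median of 400.5 genes and fine-grained cells 1296, and over all cells the number ran from 193 through a median of 1160 to 2779. The steps between the values of 2 cells give their relative numbers of fragments, and by that measure the median fine-grained cell held 1042 times as many fragments as the median coarse-grained cell. Across the 78 cells, which share the chip chemistry, the number of genes listed followed the relative number of fragments with a Spearman rho of 0.83, and the plot of genes listed against fragments shows the coarse-grained cells at its lower left. A difference in RNA content between these cells and a difference in capture or sequencing cannot be told apart.

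**Figure D1:**
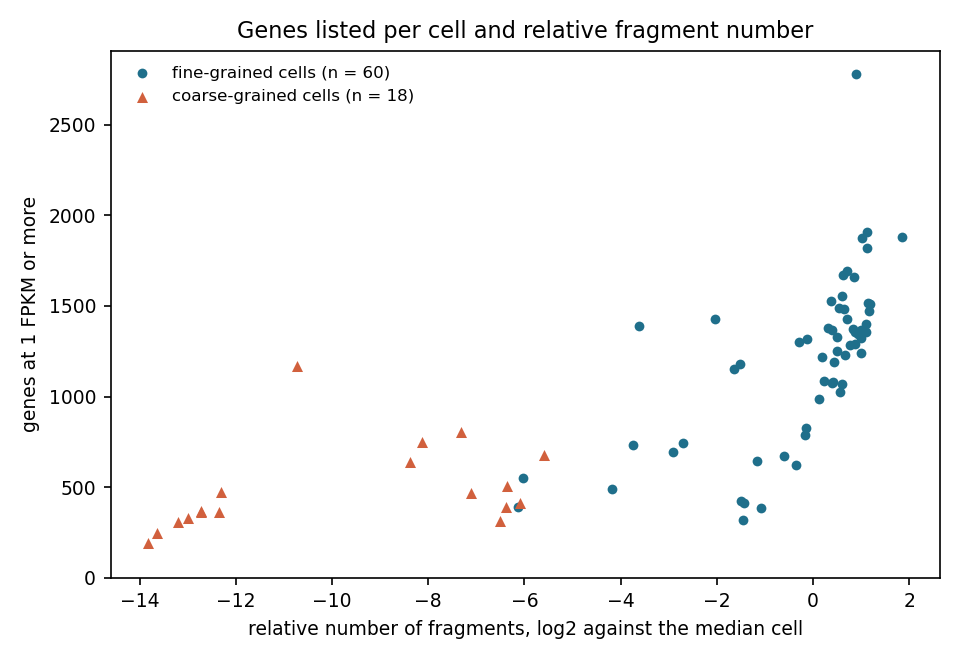
Each point is 1 of the 78 old cells; the x axis gives its relative number of fragments on a log2 scale against the median cell and the y axis the number of genes at 1 FPKM or more. The 18 coarse-grained cells (triangles) list a median of 400.5 genes and the 60 fine-grained cells (circles) 1296.

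Cxcl12, whose product holds blood stem cells in the marrow, had the highest median of all 22866 names. Its FPKM ran from 0.10 through a median of 823 to 18829, and 77 of 78 cells listed it (98.7%, interval 93.1 to 100.0%). The rank of a gene within its cell does not depend on the scale of the cell. By rank Cxcl12 stood among the 10 highest names in 43 of the 77 cells that listed it. Its median rank in these 77 cells was 9 and its worst 126. Igfbp5, a secreted binding protein for insulin-like growth factors, was listed in all 78 cells, from 1.73 through a median of 383 to 195362 FPKM. Mgp, the matrix Gla protein that restrains calcification, had a median of 418 FPKM, a highest value of 8002 and was at 0 in its lowest cell. It was listed in 72 cells. Lepr itself, the receptor used in the sort, was lower, with a median of 64.1 FPKM and a highest value of 11506, and was listed in 71 cells (91.0%, interval 82.4 to 96.3%). Its median rank within the cells that listed it was 186. All 4 of these genes were listed together in 66 cells (84.6%, interval 74.7 to 91.8%), 10 cells listed 3 of them and 2 cells listed 2. Those 2 cells were fine-grained, and 1 of them was the cell without Cxcl12.

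Pdgfra, the other receptor of the gate, was listed in fewer cells than Lepr. Its median was 0.05 FPKM (0.16 without the coarse-grained cells and 0.55 without the 20 cells that listed few genes), its highest value 120, and only 30 of 78 cells listed it (38.5%, interval 27.7 to 50.2%). The coarse-grained cells held 14 of the 48 cells without it, and 34 were fine-grained, where the share was 43.3%. In no cell did it rank among the 100 highest names, and of the 5 genes of the gate and marker list it was the only one outside the 4 listed in 90% of the cells. Against all names it was still frequent, as 1 of the 1028 of 22866 names listed in at least 25% of the cells.

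Of the 4 leading markers, Mgp had the widest spread. Its lower and upper quartiles were 96.6 and 1111 FPKM, against 555 and 1291 for Cxcl12 and 194 and 596 for Igfbp5, and the SD of log2(FPKM + 1) over cells was 3.24 for Mgp, 1.76 for Cxcl12 and 1.78 for Igfbp5. The 6 cells without Mgp were all fine-grained, while all 18 coarse-grained cells listed it, at a median of 2500 FPKM against 336 in the fine-grained cells. Cxcl12 did not differ in this way, with medians of 836 and 823 FPKM in the coarse-grained and fine-grained cells, and Igfbp5 went the other way, with 154 and 451 FPKM. Whether the grain of a cell has a part in its Mgp level was not tested. Levels of Cxcl12, Mgp, Igfbp5 and Lepr did not rise and fall together from cell to cell: over the 78 cells, rho was -0.02 for Cxcl12 with Mgp, 0.00 for Cxcl12 with Igfbp5, 0.08 for Cxcl12 with Lepr and 0.19 for Mgp with Lepr. In the fine-grained cells alone the same pairs gave -0.08, 0.14, 0.22 and 0.22.

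**Figure D2:**
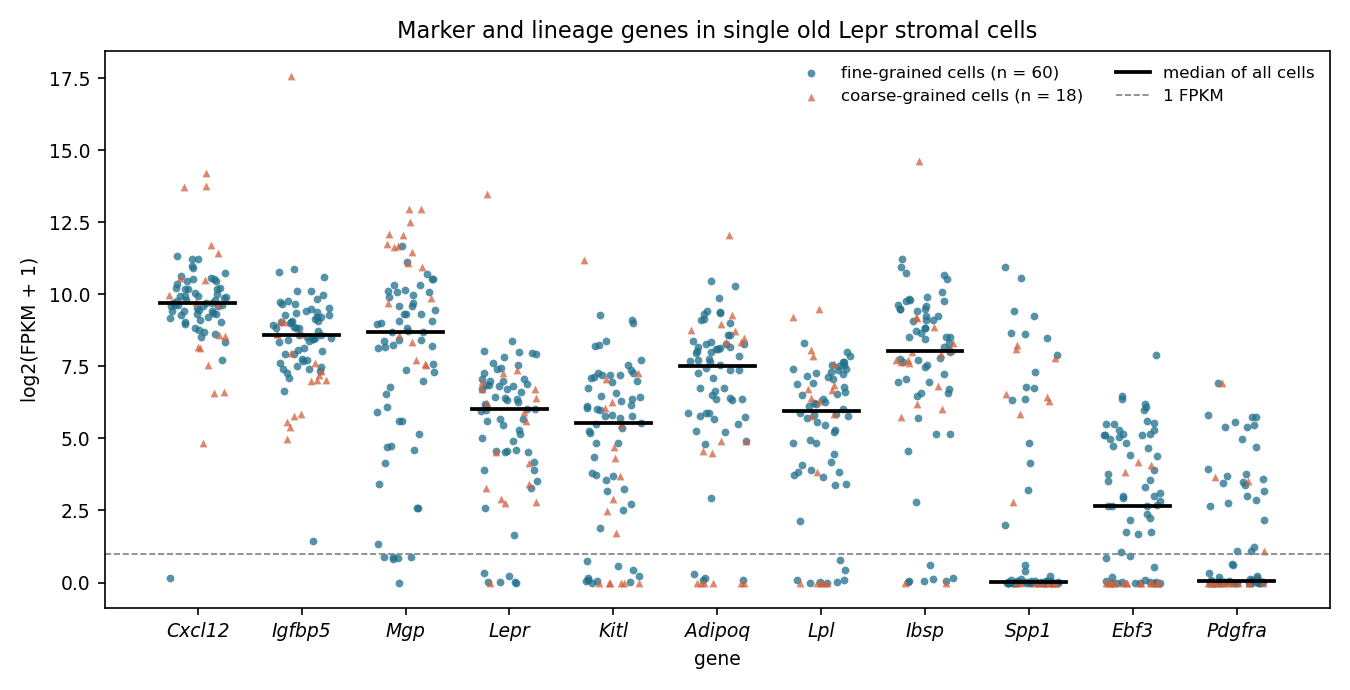
Each point is the value of 1 gene (x axis) in 1 old cell as log2(FPKM + 1) (y axis), with the median of all 78 cells as a black bar and 1 FPKM as a dashed line. Cxcl12 and Igfbp5 form narrow bands, Mgp spreads over the whole scale, and Spp1, Ebf3 and Pdgfra have many cells under the line.

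Other factors by which these cells are known to act on blood stem cells were less regular. Kitl, stem cell factor, was listed in 62 cells, from 0 through a median of 45.2 to 2351 FPKM. Vcam1, an adhesion molecule that holds blood progenitors, was listed in 53, with a median of 7.23 and a highest value of 554 FPKM. Every cell that listed Kitl also listed Cxcl12, but 15 cells listed Cxcl12 without Kitl, 9 of them fine-grained, and the levels of both genes showed little relation (rho 0.08 over 78 cells). Of the 18 niche factors examined, 3 were listed in 50% or more of the cells (16.7%, against 1.26% of all names). Angpt1, which acts on the Tie2 receptor, was listed in 26 cells, and Thpo, thrombopoietin, in 1. Tgfb1 and Il6 were listed in none.

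Genes of the fat and bone fates were present in the same cells. Adipoq, the fat cell hormone adiponectin, was listed in 68 cells, from 0 through a median of 180 to 4224 FPKM, and 56 of the 60 fine-grained cells listed it. Ibsp, bone sialoprotein, was listed in 69, from 0 through 262 to 25217 FPKM. In 62 of the 78 cells (79.5%, interval 68.8 to 87.8%) both were listed, 6 cells listed Adipoq alone, 7 listed Ibsp alone and 3 neither. The levels of the 2 genes were weakly and not inversely related, with a rho of 0.30 over 78 cells and 0.32 over the 60 fine-grained cells. Lpl, the lipase that frees fatty acids from lipoproteins, was listed in 65 cells at a median of 60.6 FPKM, and together with Ibsp in 59, with a rho of 0.00.

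Both lists of fate genes had frequent and absent members. Of 20 adipogenic genes, 5 were listed in 50% or more of the cells, Adipoq and Lpl highest, and 6 were listed in no cell (56.2% of all names were listed in none). Those 6 are Fabp4, Fabp5, Cd36, Plin1, Cfd and Lep. Fasn, fatty acid synthase, was listed in 1 cell. Pparg, the nuclear receptor that drives fat cell formation, was listed in 4. Of 22 osteogenic genes, 6 were listed in 50% or more of the cells, with Ibsp and Col1a2, a chain of type I collagen (65 cells, median 29.5 FPKM), highest. Bglap, osteocalcin of the mature osteoblast, was listed in 1 cell, at 489 FPKM, and 4 of the 22, Dmp1, Mepe, Sost and Dlx3, in none. Runx2, the bone transcription factor, was listed in 9 cells on the row that bears its name alone. A second row, which joins Runx2 with Supt3 and is not counted there, was above 0 in 61 of the 78 cells. Of Spp1, osteopontin, 25 cells had values at or above 1 FPKM, with a median of 110 FPKM among them and a highest value of 1993. The other 53 cells lay under 1 FPKM, and the median over all cells was 0.02. It was listed with Ibsp in 21 cells and without it in 4 (rho -0.18 over 78 cells, -0.14 over the fine-grained ones).

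Type I collagen was listed unequally by its 2 chains. Col1a2 was listed in 65 cells, whereas Col1a1 was listed in 14, all fine-grained, with a highest value of 57.3 FPKM against 542 for Col1a2. The mature protein is made of both chains. Of 16 collagen chains, 4 were listed in 50% or more of the cells, among them Col6a1 (58 cells, median 16.4 FPKM), and Col16a1 was listed in 3.

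Transcription factors of marrow stroma were listed in moderate numbers of cells. Of 24, 6 reached 50% of the cells. Maf was highest, with a median of 33.8 FPKM in 57 cells, and Tcf7l2, an effector of Wnt signals, followed with 10.8 in 54. Ebf1 and Ebf3, factors known to keep these stromal cells in their state, were listed in 51 and 48 cells, and in 38 cells together. Ebf3 was listed in 45 of the 60 fine-grained but 3 of the 18 coarse-grained cells. Klf4 was listed in 2 cells.

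Mgp and Serping1, the inhibitor of the first complement component (70 cells, median 128 FPKM), led the 34 matrix glycoproteins and proteoglycans, of which 9 were listed in 50% or more of the cells, while Aspn was listed in 1. In the insulin-like growth factor axis 4 of 13 genes reached 50%, with Igfbp4 (64 cells, 59.2 FPKM) after Igfbp5 and Igfbp6 listed in 1 cell. Of 24 secreted regulators of BMP and Wnt signals 2 did: Chrdl1, a BMP antagonist (49 cells, 9.63 FPKM), and Sfrp4, a Wnt antagonist (39 cells, 0.88 FPKM). Serping1 and Cp, the copper-carrying ferroxidase ceruloplasmin (71 cells, 52.5 FPKM), headed the complement and acute phase genes, where 7 of 23 reached 50% and Orm1 was listed in 1 cell. Of 17 chemokines and cytokines 1 did, Cxcl14 (52 cells, 10.4 FPKM), followed by Csf1, the macrophage growth factor (35 cells, 0.50 FPKM), and Ccl19 was listed in 1 cell.

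B2m, the light chain of class I antigen molecules, was listed in all 78 cells from 4.01 through a median of 650 to 3471 FPKM, the second highest median after Cxcl12. Of 13 class I genes with a row of their own 4 reached 50%. Canx, a chaperone (57 cells, 51.5 FPKM), came next among the 13, and Tap2, part of the peptide transporter, was listed in 4 cells. H2-D1, H2-K1 and H2-Q7 had no row of their own and are not among the 13. The row that joins H2-D1 with other class I genes was listed in 72 cells, and the row of H2-K1 with H2-K2 in 64. Among 26 interferon response genes only Ifitm3 (68 cells, 343 FPKM) and Ifitm2 (54 cells, 103 FPKM) reached 50%. Both encode membrane proteins that block viral entry, and over 78 cells their levels had a rho of 0.43 (0.58 over the fine-grained cells). Their sequences are alike, and how reads shared by such copies were divided is not given, so that the 2 values are not fully separate. Ifit2 was listed in 1 cell.

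The remaining lists describe upkeep. Iron handling was prominent: Ftl1 and Fth1, the ferritin chains, had medians of 253 and 185 FPKM, Trf, transferrin, 105, and 4 of 14 genes reached 50%, with Slc11a2 listed in 1 cell. Gpx3, a secreted glutathione peroxidase (73 cells, 377 FPKM), and Sod1, a superoxide dismutase (53 cells, 42.2 FPKM), led the antioxidant and metal binding genes, of which 6 of 25 reached 50% and Nqo1 was listed in 2 cells. In the cytoskeleton list 8 of 25 did so, headed by Tmsb4x, an actin-binding peptide (75 cells, 521 FPKM), and Actb (78 cells, 405 FPKM), with Tubb2a listed in 3. Fos and Egr1, immediate early transcription factors that respond quickly to many stimuli, were listed in 58 and 64 cells at medians of 61.1 and 56.5 FPKM. Cells high in Fos tended to be high in Egr1 (rho 0.58 over 78 cells, 0.57 over the 60 fine-grained ones), and 8 cells listed neither. Of the 30 immediate early and feedback genes 5 reached 50%, and Atf3 was listed in 1 cell.

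Splicing factors had 9 of 24 members in 50% or more of the cells, Srsf2 (57 cells, 117 FPKM) and Rbm39 (51 cells, 13.7 FPKM) highest and Srsf1 lowest with 9 cells. Folding in the endoplasmic reticulum had 5 of 31, Canx and Hsp90b1 (64 cells, 43.3 FPKM) highest and Serp1 in 3 cells. Cytosolic heat shock chaperones had 2 of 15, Hspa8 (64 cells, 67.5 FPKM) and Hsp90ab1 (43 cells, 3.16 FPKM), with Hspb1 in 3 cells. Of 46 oxidative phosphorylation genes 2 reached 50% (Atp5l, 44 cells, and Uqcrb, 41 cells, with Cyc1 in 5), but every member was listed in some cell and the median member in 27.6% of the cells. Of 16 glycolysis genes 1 did (Aldoa, 43 cells, ahead of Ldha with 20 and Hk1 with 2). Translation factors had 3 of 22, Eef1a1 (58 cells, 45.1 FPKM) and Tpt1 (47 cells) highest and Eif1b in 3 cells. Lysosomal genes had 2 of 23, Ctsb, a cathepsin (45 cells, 3.79 FPKM), and Cd63 (39 cells, 1.21 FPKM), with Hexa in 6 cells. Among long noncoding RNAs 2 of 14 reached 50%, Malat1 in all 78 cells and Xist, the RNA of the inactive X chromosome, in 54 (5.19 FPKM), with Dleu2 in 3.

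**Figure D3:**
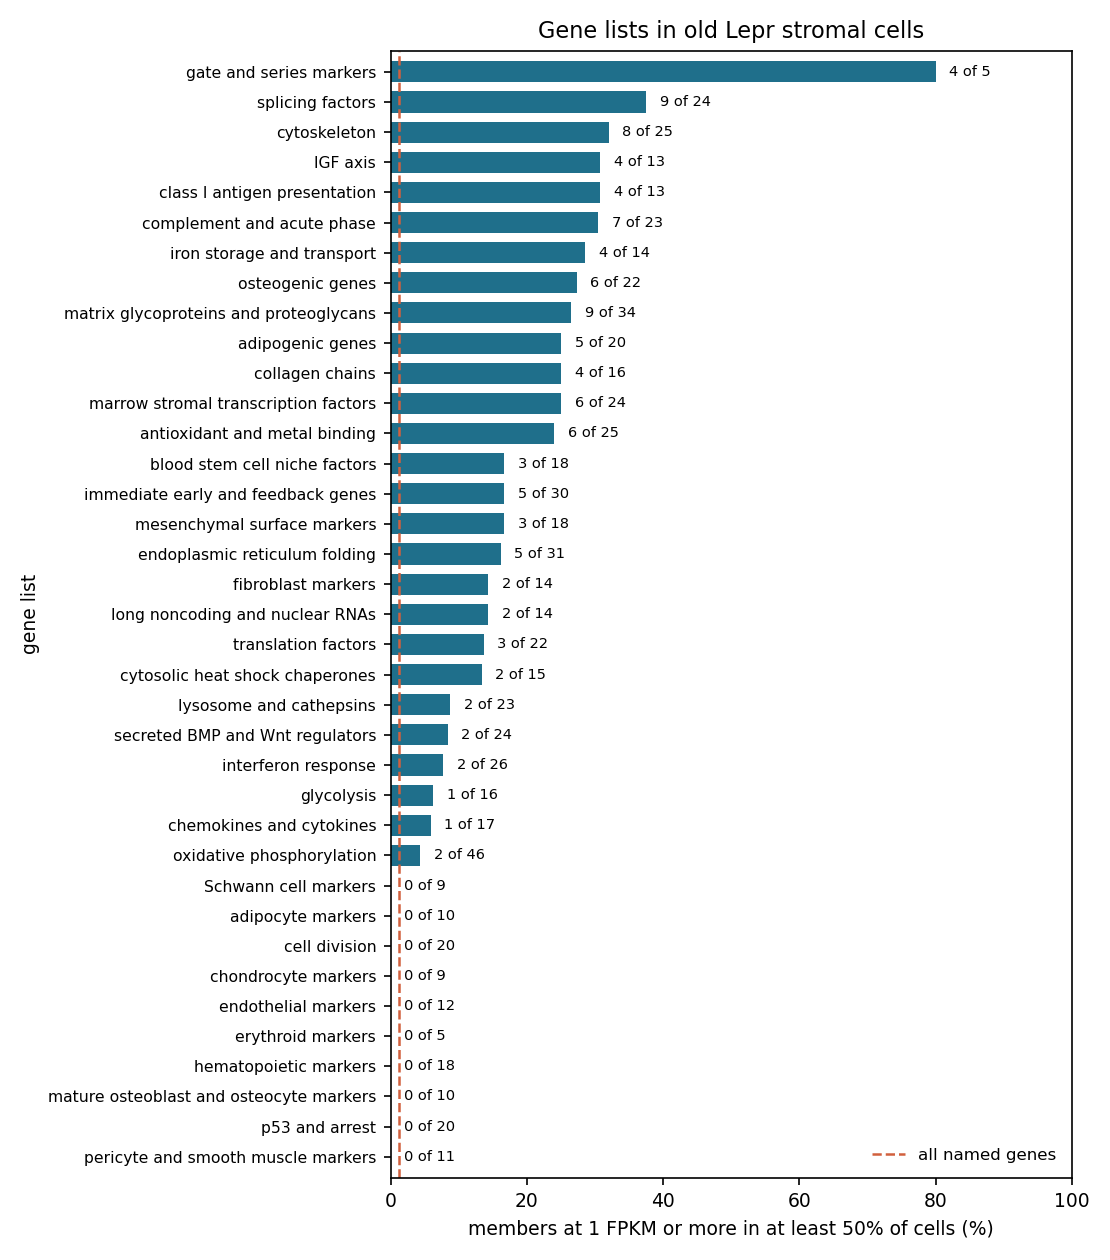
Bars give, for each gene list (y axis), the share of its members with a row that stood at 1 FPKM or more in at least 50% of the 78 old cells (x axis, %), with the counts beside them; the dashed line marks 1.26%, the share over all named genes. The 10 lists of division, arrest and other cell types at the foot of the plot have no such member.

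Of 20 genes of cell division none reached 50% of the cells, as against 1.26% of all names, and 14 were listed in none, as against 56.2% of all names, Mki67, Top2a and Cdk1 among them. Tyms, which makes thymidylate, was listed in 23 cells, Pcna in 8 and Mcm3 in 1. Of 20 genes of p53 response and arrest none reached 50% either, but only 4 were listed in no cell, and the median member was listed in 7.05% of the cells, where the median over all names is 0. Among them Tnfrsf10b was listed in 13 cells, Cdkn1b in 15 and Bax in 1.

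Markers of other cells were listed in few of the cells, and no cell held more than 2 from any list but the fibroblast one. Of 18 hematopoietic markers 14 were listed in no cell, Ptprc, which encodes CD45, among them, where 56.2% of all names were listed in none. Fcer1g was listed in 9 cells, Cd68 in 2 and S100a8 and S100a9 in 1 each, and the summed level of the list ran from 0 in most cells to 13887 FPKM in 1, and was at most 1.11% of a cell's named FPKM. The 12 cells with at least 1 hematopoietic marker listed 4 or more of 8 stromal markers (Cxcl12, Igfbp5, Mgp, Lepr, Kitl, Adipoq, Ebf3 and Pdgfra), with a median of 7. Cells with a chondrocyte, Schwann cell or fibroblast marker listed as few as 2 of these 8 stromal markers. Those with a mature bone cell marker listed as few as 3, and the median was 7 for each of these lists. For the erythroid, endothelial, pericyte and smooth muscle, and adipocyte lists the lowest number was 6 or more. Of 12 endothelial markers only Eng was listed, in 4 cells, and Pecam1, which encodes CD31, in none. Of 5 erythroid markers with a row only Epor was listed, in 1 cell. The globin genes Hbb-b1, Hbb-b2, Hba-a1 and Hba-a2, and also Ahsp, had no row of their own and were not examined. Pericyte and smooth muscle markers had 4 of 11 members listed in any cell, Notch3 in 3 cells and Des, Tagln and Abcc9 in 1 cell each, and Rgs5 and Acta2 in none. Chondrocyte markers had 3 of 9, Sox9 in 7 cells, Col11a1 in 4 and Comp in 1, and Acan and Col2a1 in none. Mature bone cell markers had 3 of 10, Sp7 in 4 cells and Bglap and its near-identical copy Bglap2 in 1 cell each, and adipocyte markers 1 of 10, Acsl1 in 1 cell. Listed in no cell were thus 7 of 11 pericyte and smooth muscle, 6 of 9 chondrocyte and 7 of 10 mature bone cell markers. These shares lie not far above the 56.2% of all names, and the counts alone do not set these lists apart. For endothelial, erythroid and adipocyte markers the counts were 11 of 12, 4 of 5 and 9 of 10, the erythroid count being without the globin genes.

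The lists of Schwann cell and fibroblast markers were the exceptions. S100b was listed in 27 cells, Ncam1 in 19 and Ngfr in 1, but Mbp and Sox10, of myelin and of the Schwann cell lineage, were listed in none. Dcn, decorin, was listed in 52 cells (16.5 FPKM) and Fap in 41 (1.72 FPKM), whereas Pi16, Clec3b, Dpt and Thy1 were listed in none and Cd34 in 1. Of 18 mesenchymal surface markers 3 reached 50%, Lepr, Vcam1 and Pdgfrb, the PDGF receptor beta (52 cells, 9.63 FPKM), and Ly6a was listed in 1 cell.

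The 30 names of highest median run from Cxcl12 at 823 to Ifitm2 at 103 FPKM. Together they held a median of 18.8% of a cell's named FPKM. Besides those above, they hold Malat1 (634 FPKM), a nuclear RNA, Cst3 (552), the protease inhibitor cystatin C, Nupr1 (367), a stress-induced nuclear protein, S100a11 (211), a calcium-binding protein, Tmem176b (204), a membrane protein, Serpine2 (200.2), an inhibitor of thrombin, Fstl1 (177), a secreted glycoprotein, Gja1 (175), the gap junction protein connexin 43, Ubb (162), ubiquitin, and Ppia (162), a prolyl isomerase. The ribosomal protein genes Rpl41 and Rps27, a row that joins H2-D1 with other class I genes and Rn45s, a ribosomal RNA precursor, complete the 30. Of these 30 genes 14 were also among the 16 widely listed ones, which is 46.7% of the first set and 87.5% of the second. The highest single values were not found evenly over cells: 12 of the 30 had a value over 10000 FPKM, and in all 12 the cell was coarse-grained.

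The 2 promoters shown belong to the highest gene of the niche list and of the osteogenic list and differ in base composition. They are RefSeq entries on build GRCm38.p6, from 250 bases before the gene's start to 50 after it, matched by symbol, whereas the submitters' processing notes name mm9. The Cxcl12 entry is at chr6:117168285-117168584 on the plus strand, with the 5 matches to the GC box GGGCGG on either strand in capitals, 2 of which overlap. The Ibsp entry is at chr5:104299037-104299336 on the plus strand, with its 1 match to the core TATA box TATAAA, on the opposite strand, in capitals. That match starts at position -28 from the gene's start.
Cxcl12: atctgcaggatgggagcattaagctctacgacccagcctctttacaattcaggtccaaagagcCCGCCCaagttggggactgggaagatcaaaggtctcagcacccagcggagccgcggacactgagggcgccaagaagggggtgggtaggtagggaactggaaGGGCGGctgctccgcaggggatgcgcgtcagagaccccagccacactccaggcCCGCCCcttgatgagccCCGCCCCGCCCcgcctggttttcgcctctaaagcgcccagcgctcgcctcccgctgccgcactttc
Ibsp: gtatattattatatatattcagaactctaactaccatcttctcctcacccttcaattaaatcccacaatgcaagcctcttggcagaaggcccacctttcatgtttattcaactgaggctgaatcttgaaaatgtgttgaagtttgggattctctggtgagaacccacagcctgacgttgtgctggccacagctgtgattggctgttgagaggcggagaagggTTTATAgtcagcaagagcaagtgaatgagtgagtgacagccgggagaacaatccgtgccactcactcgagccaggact

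GC content was 64.7% for the Cxcl12 entry, with 20 CpG, and 46.3% for the Ibsp entry, with 5, against a median of 52.7% over 27025 promoters. Of the 30 most abundant genes 24 had an entry. TATAAA on either strand occurred in 7 of these 24 (29.2%, interval 12.6 to 51.1%) against 14.2% of all promoters, and GGGCGG in 14 of 24 (58.3%, interval 36.6 to 77.9%) against 35.9%. CCAAT was found in 33.3% against 37.9%, CACGTG in 8.33% against 7.24% and TGANTCA in 12.5% against 7.93%. Of the 12 widely listed genes with an entry 1 held TATAAA. A match describes these letters in this window and not a bound site.

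Of the 16 widely listed genes, Actb, B2m, Igfbp5, Malat1 and Rn45s were listed in 78 of 78 cells, Cxcl12 in 77, Gja1 and Tmsb4x in 75. The other 8 were Cst3, Fstl1 and Serpine2 (74 cells each), Gpx3 (73), Mgp and the joint H2-D1 row (72 each), and Cp and Lepr (71 each). Of these 8, Mgp belongs to the matrix list, Gpx3 to the antioxidant list, Cp to the acute phase and iron lists and Lepr to the list of surface markers. Just under the threshold lay Rps25, Serping1 and Ywhaz with 70 cells and Ibsp, Lars2 and Tmem176b with 69.

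The count depended on which cells were used. Among the 60 fine-grained cells alone 33 genes were listed in at least 90%, and these held all 16. The 17 added are Lars2 (60 of 60 cells), Serping1 (59), Fth1 and Ywhaz (58 each), Kng2 and Tmem176b (57 each), Adipoq (56), Runx1 and Arglu1 (55 each) and, with 54 each, Col1a2, Igfbp4, Ifitm3, Hmgb1, Myh9, Ubb, Marcks and Zfp36l1. They were named after their values were seen. Adipoq, Igfbp4, Col1a2 and Runx1, a transcription factor best known from blood formation, thus belong with Lepr and Mgp when only finely graded cells are counted. That these 17 have lower shares in the coarse-grained cells follows from how they were chosen. Of the 16 widely listed genes Serpine2, Mgp and Cxcl12 were listed in 18 of 18 coarse-grained cells, as were Actb, B2m, Igfbp5, Malat1 and Rn45s, which every cell listed.

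**Figure D4:**
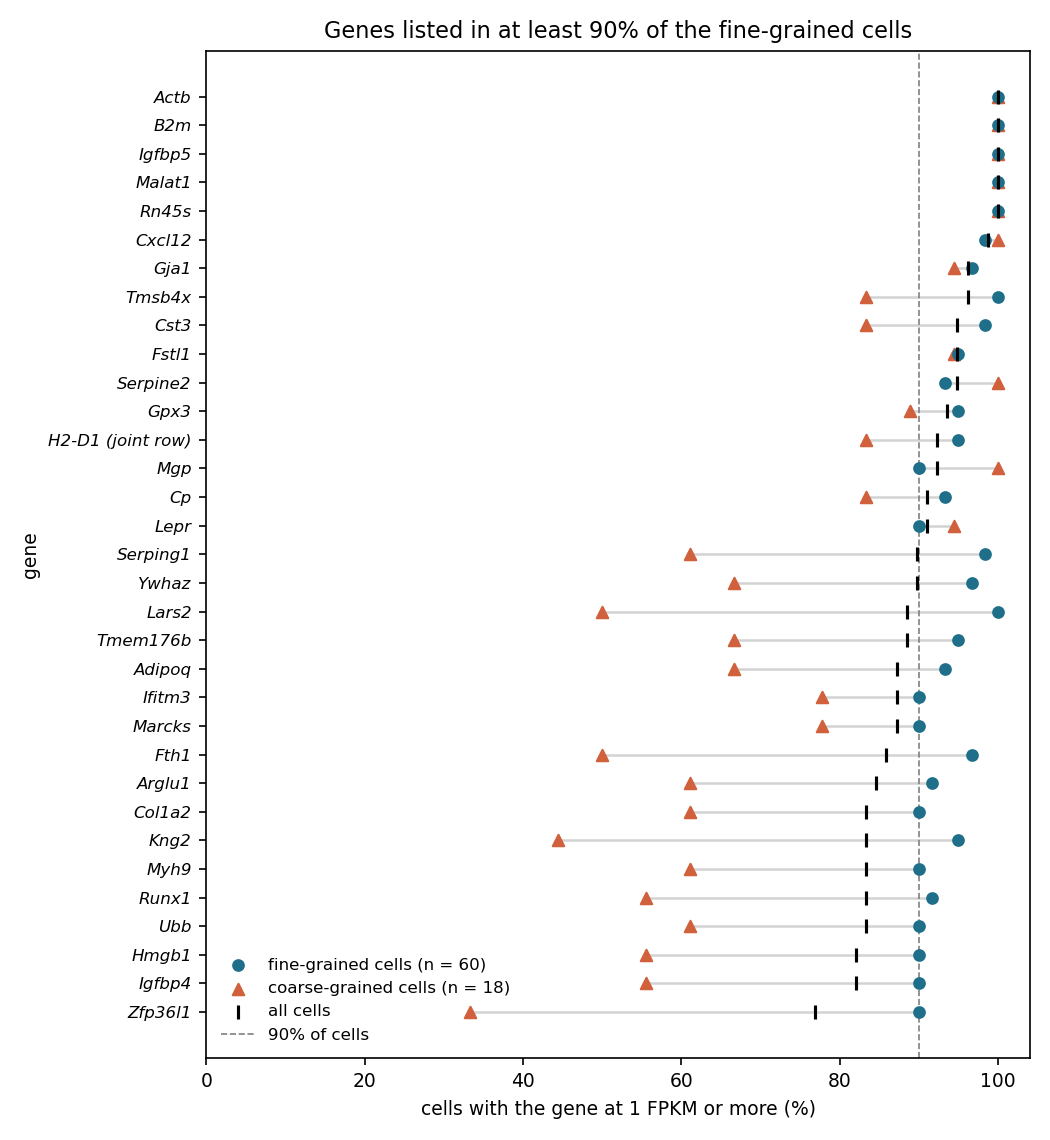
For each gene listed in at least 90% of the 60 fine-grained cells (y axis), the x axis gives the share of cells (%) with 1 FPKM or more among fine-grained cells (circles), coarse-grained cells (triangles) and all 78 cells (black ticks). The upper 16 genes reach 90% of all cells, and the 17 below them do so only among the fine-grained cells, which is how they were chosen.

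The steadiest genes were taken as the 10 of lowest SD of log2(FPKM + 1) among those with a median of at least 50 FPKM. Malat1 varied least, with an SD of 1.01 and values from 32.1 through 634 to 1829 FPKM. It was followed by Cxcl12 (1.76), Igfbp5 (1.78), B2m (1.95), Actb (2.06), Rn45s (2.09), Serpine2 (2.22), Cp (2.24), Lepr (2.40) and Fstl1 (2.48). All 10 were among the widely listed genes, which the choice itself favours, since at such a median cells under 1 FPKM raise the SD. After each cell was rescaled to the same sum of named FPKM, 7 of the 10 were among the steadiest 10 again, Serpine2, Cp and Fstl1 being replaced, and the SD of Malat1 was then 1.60 and that of Cxcl12 2.25.

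The values of a few of these genes recurred almost exactly. For B2m 9 cells lay between 644.5 and 645.7 FPKM, for Actb 8 cells between 399.4 and 399.5, for Malat1 5 cells between 707.02 and 707.05 and for Serpine2 4 cells between 196.4 and 196.7. Among the other rows above 0 in at least 60 cells no more than 3 cells fell within a window of 0.3%. Igfbp5 was 1 of the rows with 3 such cells, all coarse-grained and all at 391.551 FPKM. The sources used here do not say how the scale of each cell was set. In 4 cells the FPKM times transcript length in kilobases summed to more than 1000000, from 1.01e+06 to 3.20e+06. If the FPKM had been made with these lengths, that is more than a scale per 1000000 fragments can give. The lengths are medians over annotated transcripts, and those behind the FPKM are not known. The part of the scale in the low spread of B2m, Actb, Malat1, Serpine2 and Igfbp5 was not tested.

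The 20 most variable genes, by the SD of log2(FPKM + 1) among the 1028 genes listed in at least 25% of the cells, had SDs from 3.73 to 4.45. S100a11 varied most. It was listed in 57 cells, with quartiles of 0.44 and 558 FPKM and a highest value of 703375 FPKM, and that 1 cell held 66.8% of the gene's FPKM over all cells. By role the set holds ribosomal protein genes (Rpl32, Rpl9, Rps19, Rpl35, Rps28, Rps27, Rps18, Rpl38 and Rps14), subunits of the respiratory chain (Cox6a1, Cox6b1, Ndufa3 and Ndufa4), a row joining the myosin light chains Myl6 and Myl6b, Rarres2, the adipokine chemerin, Klk14, a secreted protease, Sod1, Ifitm2 and Srsf2. Rarres2 was listed in 41 cells, with a median of 251 FPKM among them, and in 3 of the 18 coarse-grained cells. Cox6a1 was listed in 34, at 330 FPKM among them. Of the 20 genes 19 had a median above 0 over all 78 cells. Single cells also weighed heavily: 1 cell held over 90% of the summed FPKM of Rpl32 (99.1%), Rpl9 (92.6%), Rpl35 (97.6%), Cox6b1 (99.3%) and the Myl6 row (99.5%).

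These 20 genes had short transcripts. Of the 19 with a length in the annotation, 16 were under 1000 bases and their median was 595.5 bases, against 439 of 969 (45.3%) and a median of 1191 bases for the genes that passed the filter. The median SD was lower in each longer length class, from 2.99 under 600 bases through 2.58, 2.32 and 2.19 to 2.09 at 4000 bases or more. Across these genes, which share the same 78 cells and are not independent, rho between SD and length was -0.39. Many ribosomal protein genes also have processed copies elsewhere in the genome, which makes their single values uncertain. The 78 genes named as ribosomal protein genes have a median length of 641 bases, and none was listed in 90% of the cells. The median share of cells was 48.7%, with 60% in the fine-grained and 11.1% in the coarse-grained cells. Whether transcript length or the grain of a cell has a part in their spread was not tested.

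**Figure D5:**
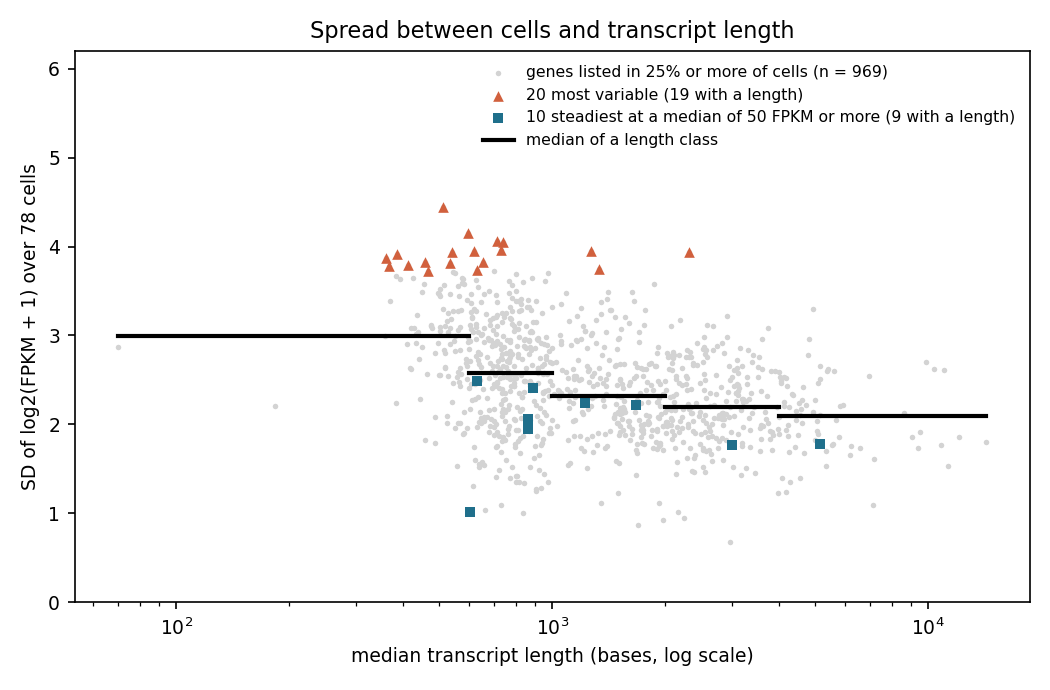
Each grey point is a gene listed in at least 25% of the 78 old cells with a known length (969 genes); the x axis is its median annotated transcript length in bases (log scale) and the y axis the SD of its log2(FPKM + 1) over cells. Black bars, the medians of 5 length classes, step down from 2.99 to 2.09, and 16 of the 19 most variable genes with a length (triangles) lie under 1000 bases.

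A further set was taken among fine-grained cells and genes with a median annotated length of at least 1000 bases, a choice made after the data were seen. That median need not be the length of the transcript made in these cells. The 20 most variable genes of this set shared Srsf2 and Sod1 with the set above. Of that earlier set only Srsf2, Sod1 and Klk14 had such a length, so that the small overlap follows from the filter. The other genes of the further set, likewise named after their values were seen, include Spp1, the intermediate filament gene Vim, the early gene Egr1 and Tmem176a. Among them are also the surface proteoglycan Sdc4, the tetraspanin Cd63, the spectrin Sptbn1 and Fhl2, a cofactor of transcription. Spp1 was listed in 17 of the 60 fine-grained cells, Vim in 39 and Tmem176a in 44. Vim, often used as a mesenchymal marker, had quartiles of 0.03 and 109 FPKM over all 78 cells and a highest value of 719.

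Few pairs of the variable genes were closely related over cells. Of 190 pairs among the 20, 3 had a rho of at least 0.5 in size, Rpl9 with Ifitm2 (0.54), Rps19 with Rps28 (0.53) and Rps19 with Rpl35 (0.52), and the median over pairs was 0.24. In the fine-grained cells these 3 pairs gave 0.45, 0.25 and 0.39, and 2 other pairs were over 0.5 there, Rarres2 with Rps14 and Cox6b1 with Ifitm2 (0.52 each). Rps19 also followed the number of genes listed in a cell (rho 0.52), as did Rps28 (0.51) and Rpl35 (0.56). The part of that number in these pairs was not tested. Among the 190 pairs of the longer genes none reached 0.5.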

How the data were processed

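Single-cell RNA-seq values were deposited by the authors as FPKM in 1 table of 31199 rows and 160 cells, of which the 78 columns of old cells were used. Cufflinks 2.1.1 and mm9, a mouse genome build, are named in the submitters' processing notes. Which annotation and filters were used, how shared reads were treated and how many reads each cell had is not given in the sources used here. Wells with 0, several or shrunken cells had been set aside by microscopy, per the labels' protocols, and no doublet caller was run.

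The 7751 rows without a gene name were left out. The 23448 named rows were summed over the 468 names found on several rows, giving 22866 names, of which 319 join several symbols and 24 are dates. Shares of cells use 1 FPKM, and spread is the SD of log2(FPKM + 1). FPKM carry no counts, so no count model was used. Relative fragment numbers came from recurring ratios between the values of 2 cells, over 3003 pairs, of which 99.2% were fitted within 0.05 on the log2 scale. The choice of widely listed genes, that of variable genes and the relative fragment numbers were tested on simulated data, and the other computations were not. The simulated cells spanned a narrower range of fragment numbers than the old cells. Lengths are medians over GENCODE M21 transcripts (97.2% of names matched). Promoters are from RefSeq GRCm38.p6.

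Genes were named by rule: the 30 highest medians, the genes listed in 90% of cells, the 20 most variable, the 10 steadiest, and for each of 37 gene lists the 2 members of highest median and the one of lowest share, with the 5 gate and marker genes. Further members of a list were named after their values were seen, and a few members are not reported here. Members, lists and tests were chosen with earlier results of these data known. Alternatives changed thresholds, cells, scaling, the pseudocount and the measure of spread. Python 3.11.15, pandas 2.3.3, numpy 2.4.6 and scipy 1.17.1 were used.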

Additional observations from a re-analysis of the deposited data

Results flagged for a closer look

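Rows without a gene name, which none of the comparisons used, carried a median of 43.8% of a cell's summed FPKM, from 4.68% to 89.3% over the 78 old cells. Of the 7751 such rows 2 were at 1 FPKM or more in at least 90% of the cells, 3427 were so in no cell, and the highest row median was 479 FPKM. What these rows are is not given in the sources used here.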

How the results depend on the processing

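The 16 genes listed in 90% of the cells became 10 at 10 FPKM, 46 at 80% of cells, 8 at 95% of cells, 42 without the 20 cells that listed under 50% of the median number of genes, and 33 without the coarse-grained cells. All 16 remained in the last set and in the set of 42. Of the 30 most abundant genes 8 remained by mean FPKM, and 28 to 30 under the other alternatives. Of the 20 most variable genes 10 remained without the cells that listed few genes, 13 without the 9 cells of high summed FPKM, 11 without the coarse-grained cells, 13 by the interquartile range, 3 among transcripts of 1000 bases or more and 2 among these without the coarse-grained cells. By length at most 3 of the 20 could remain, since only Klk14, Sod1 and Srsf2 had a length of 1000 bases or more. The alternatives without coarse-grained cells and by length were chosen after seeing the data. In each of the alternatives run on the markers, the medians of Cxcl12, Igfbp5, Mgp and Lepr, 4 of 4, stayed at 50 FPKM or more. The median of Pdgfra moved from 0.05 to between 0.06 and 0.55 FPKM. No paired analysis was possible because the numbers that cells share across ages only name cells and no test was made. With 1 sample and unknown read numbers, shares describe these cells and not old mice at large.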
